A study of Mus musculus with 6 samples.

Results

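Border-associated macrophage genes mark the macrophages of the brain's borders. The set held Mrc1, Stab1, Cd163, Lyve1, Pf4, Cbr2, F13a1, Ms4a7 and Lyz2, taken by symbol from the deposited table of the series. All 9 symbols were found among 20323 genes with values. The study compared Nrg-1β1 with vehicle in GFP-positive cells sorted magnetically from the hippocampus of Nestin-CreERT2;Rosa26-mGFP mice. The 3 Nrg-1β1 animals had cuprizone, a copper chelator that strips myelin, for 10 weeks, then 4 weeks of recovery with neuregulin 1 beta 1 peptide, a ligand of ErbB receptors. The 3 vehicle animals had the same 10 weeks of cuprizone and 4 weeks of recovery with 0.1% bovine serum albumin in saline. The Nrg-1β1 dose was 60 µg per kg per day in the series text, while the sample labels give 60 in grams, so its unit is uncertain. Every animal carried the Nestin-driven, tamoxifen-inducible Cre and the membrane GFP reporter. Each library was treated as 1 animal, and no group without cuprizone was used here.

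Border-associated macrophages lie in the perivascular spaces, the meninges and the choroid plexus, where they take up proteins, lipids and debris from blood and cerebrospinal fluid. They depend on the receptor Csf1r, as microglia do, but are set apart from microglia by scavenger and lectin receptors such as those encoded by Mrc1, Cd163, Lyve1 and Stab1. Nestin-driven labelling is designed to mark neural progenitors and their progeny, and macrophages do not arise from these cells.

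The libraries differed strongly in depth. The recovered reads came to 567073, 662909 and 1327003 in the Nrg-1β1 libraries and to 72953034, 1075813 and 47076006 in the vehicle libraries. A single read was worth 3.04 to 5.17 normalized counts in the Nrg-1β1 libraries and 3.09 in vehicle library 2, but 0.0605 in vehicle libraries 1 and 3, called deep here against the 4 shallow ones. Sex-linked reads also set libraries apart: the X-inactivation RNA Xist had 1 to 3 reads in the Nrg-1β1 libraries and 216 to 3255 in the vehicle libraries. The Y-linked gene Ddx3y had 29, 22 and 15 reads in the Nrg-1β1 libraries and 82, 1 and 1994 in the vehicle libraries. Vehicle libraries 1 and 2 thus held few Y-linked reads for their depth. Vehicle library 3 held both kinds, with 1045 Xist reads. The labelled cell type was neural progenitor. Of 8 progenitor genes, 6 or 7 had a read in each Nrg-1β1 library and all 8 in each vehicle library, and their summed level per kilobase of exon was 636 to 900 normalized counts with Nrg-1β1 and 348 to 581 with vehicle. Over a microglia list without Sparc (11 genes; Sparc, of the matrix protein osteonectin, is described with the summed levels), this sum was 633 to 887 with Nrg-1β1 and 1750 to 2739 with vehicle.

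All 9 genes had a lower mean log2 value with Nrg-1β1 than with vehicle, and none passed an adjusted p of 0.05 (limma over all genes, Benjamini-Hochberg). At an unadjusted p under 0.05, 5 of the 9 were lower, against 6.86% of all genes. Over all genes, 0.625% were called lower and 0.438% higher. A negative difference was found for 47.8% of all genes, and the median over all genes was 0.03. The median of the 9 differences was -0.91, which is that of Ms4a7, a gene without a read in the Nrg-1β1 libraries. Over the 8 genes with a read there, it was -1.0. With robust variance moderation Mrc1 alone passed (adjusted p = 0.0496, limma), where 1.15% of all genes were called lower. With the replicate number as a block, although the labels do not say that a number pairs animals, Mrc1, Lyz2 and Stab1 passed. In that fit 1.68% of all genes were called lower. The groups did not overlap for 6 of the 9, with every Nrg-1β1 library below every vehicle library, as for 10.4% of all genes. Ms4a7 is among both counts. In these bulk libraries fewer macrophages among the sorted cells and less RNA per macrophage cannot be told apart. The number of macrophages in the tissue was not measured.

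**Figure D1:**
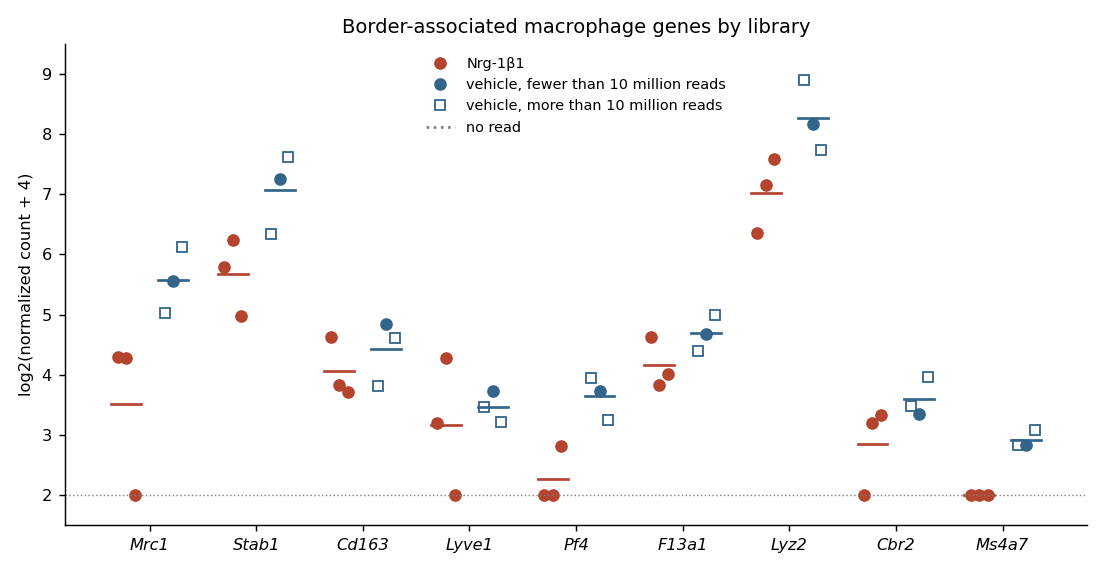
Each point is 1 library, as log2(normalized count + 4), with the 3 Nrg-1β1 libraries left of the 3 vehicle libraries and a bar at each group's mean; open squares are the deep vehicle libraries 1 and 3 and the dotted line at 2 marks no read. The groups separate for Mrc1, Stab1, Pf4, Lyz2, Cbr2 and Ms4a7 and overlap for Cd163, Lyve1 and F13a1.

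On the deposited log2 scale the receptor genes held both the largest and the smallest differences of the set. Mrc1 encodes the mannose receptor CD206, an endocytic lectin that is a standard marker of these macrophages. It had 3, 3 and 0 reads in Nrg-1β1 libraries 1 to 3, against 471, 14 and 1092 reads in vehicle libraries 1 to 3. The log2 values were 4.29, 4.27 and 2.00 with Nrg-1β1 and 5.02, 5.56 and 6.13 with vehicle. Nrg-1β1 library 3, the deepest of its group, was the lowest, and the groups did not overlap. The difference was -2.05 ± 0.60 (SE, n = 3 each, limma, unadjusted p = 0.00309), with an adjusted p of 0.107. At the pooled vehicle level, 33.9 reads would have been counted in the Nrg-1β1 libraries, where 6 were found. The pooled ratio of Nrg-1β1 to vehicle was 0.177 (95% counting interval 0.0648 to 0.386).

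Stab1 encodes stabilin 1, a large scavenger receptor for modified lipoproteins and matrix fragments that sinusoidal endothelium also makes. It had 10, 14 and 9 reads with Nrg-1β1 and 1273, 48 and 3174 with vehicle. The log2 values were 5.80, 6.24 and 4.97 in the Nrg-1β1 libraries and 6.34, 7.25 and 7.61 in the vehicle libraries. Nrg-1β1 library 2 lay just under vehicle library 1, while the other values were further apart. Stab1 differed by -1.40 ± 0.40 (SE, n = 3 each, limma, unadjusted p = 0.00253, adjusted p = 0.096), the smallest p of the set. The pooled ratio of Nrg-1β1 to vehicle was 0.341 (0.235 to 0.48), on 33 and 4495 reads. Stab1 and Lyz2 were the only members whose mean over all libraries reached 50 normalized counts.

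The regions around the starts of Mrc1 and Stab1 are shown because these receptor genes had the largest log2 differences of the set as deposited. The order depends on the scale: the pooled ratio of Pf4, given with the secreted proteins, was the lowest of the genes with a read in both groups, and with a pseudocount of 1 Pf4 (-2.56) and Ms4a7 (-2.17) differed by more than Stab1 (-1.46). Both are RefSeq windows of GRCm38.p6 from 250 bases before to 50 bases after the start, written 5′ to 3′ in the direction of the gene. Mrc1 lies on the plus strand at chr2:14229164-14229463 and Stab1 on the minus strand at chr14:31168592-31168891. Capitals mark GAGGAA on either strand (TTCCTC on the other), the core letters bound by PU.1, the myeloid transcription factor.
Mrc1: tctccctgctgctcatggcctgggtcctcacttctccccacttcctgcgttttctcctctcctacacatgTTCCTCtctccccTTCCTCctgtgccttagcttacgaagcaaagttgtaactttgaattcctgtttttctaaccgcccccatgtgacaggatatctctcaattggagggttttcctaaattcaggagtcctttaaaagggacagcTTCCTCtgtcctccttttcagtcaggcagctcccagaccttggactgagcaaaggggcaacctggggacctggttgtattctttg
Stab1: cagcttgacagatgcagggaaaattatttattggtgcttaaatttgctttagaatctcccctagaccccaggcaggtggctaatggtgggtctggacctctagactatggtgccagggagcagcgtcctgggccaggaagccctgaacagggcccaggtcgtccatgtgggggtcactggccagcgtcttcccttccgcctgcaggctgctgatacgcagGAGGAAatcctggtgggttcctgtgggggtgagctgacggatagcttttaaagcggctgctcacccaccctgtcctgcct
GAGGAA was found at 3 places in the Mrc1 window and at 1 place in the Stab1 window. Of the 8 members with a window in the table, 6 held it in at least 1 window (Mrc1, Stab1, Pf4, F13a1, Cbr2 and Ms4a7). Counted by window, 7 of the 10 member windows held it, beside 28.3% of all 32851 windows. TGCTGAC, letters bound by the macrophage factor MAF, was searched on both strands in the same way and stood only in the Cbr2 window among the members, and in 4.67% of all windows. These matches describe letters and are not binding sites.

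Cd163 and Lyve1, the other receptor genes, did not separate the groups. Cd163 encodes the scavenger receptor that clears haemoglobin bound to haptoglobin. It had 4, 2 and 3 reads with Nrg-1β1 and 167, 8 and 336 with vehicle, and log2 values of 4.62, 3.83 and 3.71 with Nrg-1β1 and 3.82, 4.84 and 4.60 with vehicle. The vehicle library with the most reads, library 1, had the lowest vehicle value and lay under Nrg-1β1 library 1. Cd163 differed by -0.37 ± 0.53 (SE, adjusted p = 0.765, limma), with a pooled ratio of 0.818 (0.372 to 1.57). Lyve1, which encodes a hyaluronan receptor shared with lymphatic endothelium, had 1, 3 and 0 reads with Nrg-1β1 and 115, 3 and 87 with vehicle. Its log2 values were 3.20, 4.27 and 2.00 with Nrg-1β1 and 3.45, 3.73 and 3.21 with vehicle. Lyve1 differed by -0.31 ± 0.59 (SE, adjusted p = 0.825, limma). Its pooled ratio of 0.907 had an interval of 0.245 to 2.36, so neither a 2-fold change nor its absence could be read at this depth.

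The genes of secreted proteins were uneven. Pf4 encodes platelet factor 4, a chemokine of platelets that border-associated macrophages also express. It had 0, 0 and 1 read with Nrg-1β1 and 187, 3 and 91 with vehicle. The log2 values were 2.00, 2.00 and 2.82 in the Nrg-1β1 libraries and 3.94, 3.73 and 3.25 in the vehicle libraries, without overlap. Pf4 differed by -1.37 ± 0.49 (SE, unadjusted p = 0.0118, adjusted p = 0.207, limma). At the pooled vehicle level 6.05 reads would have been counted in the Nrg-1β1 libraries, and the pooled ratio was 0.165 with a wide interval of 0.00417 to 0.929. F13a1, which encodes the catalytic subunit of coagulation factor XIII, a transglutaminase that cross-links fibrin, had 4, 2 and 4 reads with Nrg-1β1 and 280, 7 and 462 with vehicle. Its log2 values were 4.62, 3.83 and 4.01 with Nrg-1β1 and 4.39, 4.68 and 5.0 with vehicle, and they overlapped. The F13a1 difference was -0.53 ± 0.50 (SE, adjusted p = 0.709, limma), and the pooled ratio was 0.62 (0.296 to 1.15).

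Platelets and megakaryocytes also express Pf4 and F13a1. In a list of 6 other genes of these cells, 5 were measured and none passed. The difference was negative for 4 of them and positive only for Gp1bb, with a list median of -0.41. Ppbp, a platelet chemokine gene, had 0 reads with Nrg-1β1 and 45, 1 and 91 with vehicle (difference -0.94, adjusted p = 0.306, limma). Only 2.95 Ppbp reads would have been counted in the Nrg-1β1 libraries at the pooled vehicle level, so its difference was not detectable at this depth. Gp1bb, a platelet glycoprotein gene, differed by 0.99 (adjusted p = 0.302, limma). In a list of 4 lymphatic endothelial genes, whose cells share Lyve1, Mrc1 and Stab1, none passed, with Flt4 at -1.50 and Prox1 at 0.11. Gp1bb gave most of the summed level of the platelet list in every library. Without it, the other 4 genes summed to 0, 10.2 and 12.2 normalized counts with Nrg-1β1, on 0, 2 and 4 reads, and to 19.1, 15.4 and 27.1 with vehicle. The summed level of the lymphatic list was 97.1 to 134 with Nrg-1β1 and 101 to 152 with vehicle, and Pdpn, which neural cells also express, gave 61.5% to 77.5% of it with Nrg-1β1 and 50.6% to 76.0% with vehicle. The part of these cells in the differences was not tested.

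Lyz2, which encodes lysozyme M, a bacteria-degrading enzyme of macrophages, monocytes and neutrophils, had the most reads of the set. It had 15, 27 and 62 reads with Nrg-1β1 and 7830, 92 and 3470 with vehicle. The log2 values were 6.35, 7.15 and 7.59 in the Nrg-1β1 libraries and 8.90, 8.17 and 7.74 in the vehicle libraries. Nrg-1β1 library 3 and vehicle library 3 nearly met. Lyz2 differed by -1.24 ± 0.36 (SE, n = 3 each, limma, unadjusted p = 0.00259, adjusted p = 0.0975), and its pooled ratio was 0.424 (0.346 to 0.514), the narrowest interval of the set.

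Lyz2 has a close copy, Lyz1, the lysozyme gene known best from Paneth cells of the gut. Both lie on chromosome 10, minus strand, and their coding sequences are shown because reads from the shared stretches could have been counted to either gene. The first 300 coding bases of each come from GENCODE vM21 transcripts, 5′ to 3′ from the start codon, and capitals mark the bases that differ.
Lyz2: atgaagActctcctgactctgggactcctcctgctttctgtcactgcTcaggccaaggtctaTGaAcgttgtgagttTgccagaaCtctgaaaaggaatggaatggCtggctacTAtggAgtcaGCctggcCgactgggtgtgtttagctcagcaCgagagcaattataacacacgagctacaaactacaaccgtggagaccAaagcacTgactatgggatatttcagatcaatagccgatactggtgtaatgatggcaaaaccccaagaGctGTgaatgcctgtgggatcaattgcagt
Lyz1: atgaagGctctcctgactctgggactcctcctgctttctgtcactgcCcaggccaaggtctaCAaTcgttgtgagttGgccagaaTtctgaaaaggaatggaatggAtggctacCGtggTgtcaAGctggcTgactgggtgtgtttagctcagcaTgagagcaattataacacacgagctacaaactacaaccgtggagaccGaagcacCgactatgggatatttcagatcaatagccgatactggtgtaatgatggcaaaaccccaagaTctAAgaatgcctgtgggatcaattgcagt
The stretch shown holds 20 differing bases. Over all 444 coding bases, without the stop codon, the genes differed at 22, an identity of 95.05%, and the longest identical stretch was 118 bases. Over whole transcripts, 15.4% of the 50-base windows of Lyz2 were also present in Lyz1.

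The reads counted to Lyz1 moved with depth. Lyz1 had 4, 1 and 8 reads in the Nrg-1β1 libraries and 23, 10 and 15 in the vehicle libraries. Its share of Lyz1 and Lyz2 reads was 21.1%, 3.57% and 11.4% with Nrg-1β1 and 0.293%, 9.80% and 0.430% with vehicle. The shares were highest in the 4 shallow libraries, vehicle library 2 (95% exact interval 4.80% to 17.3%) among them, although the interval of Nrg-1β1 library 2 (0.0904% to 18.4%) reached down to the values of the deep libraries. With the reads of both genes summed, the log2 values were 6.68, 7.20 and 7.76 with Nrg-1β1 and 8.91, 8.32 and 7.75 with vehicle, and the groups then overlapped by the values of library 3 in each. Lyz1 itself differed by 0.93 (adjusted p = 0.638, limma). The part of read assignment in the Lyz2 difference was not tested.

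**Figure D2:**
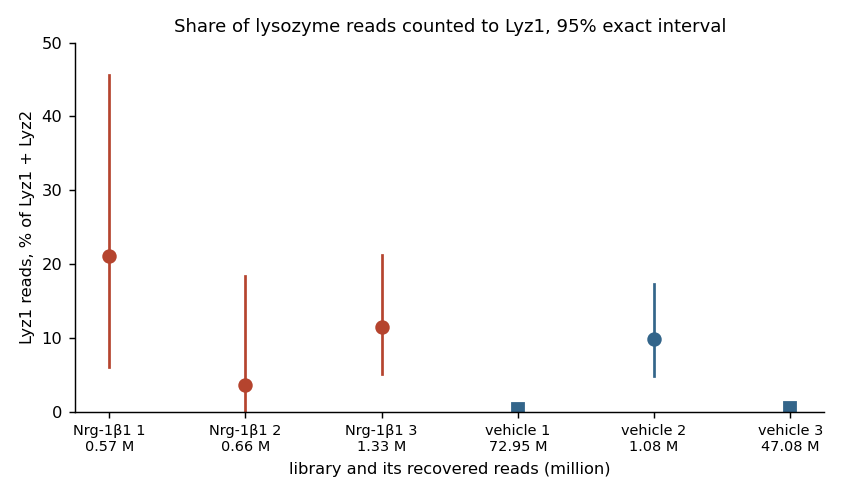
Share of reads counted to Lyz1 among those counted to Lyz1 or Lyz2, in percent, for each library with its depth; lines are 95% exact Clopper-Pearson intervals, circles are the 4 shallow libraries and squares the 2 deep ones. The share was 3.57% to 21.1% in the 4 shallow libraries and 0.293% and 0.430% in the 2 deep ones.

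The remaining members had the fewest reads. Cbr2 encodes a carbonyl reductase, an enzyme that reduces carbonyl compounds and marks these macrophages in mice. It had 0, 1 and 2 reads with Nrg-1β1 and 119, 2 and 191 with vehicle, and log2 values of 2.00, 3.19 and 3.33 with Nrg-1β1 and 3.49, 3.35 and 3.96 with vehicle. The gap between Nrg-1β1 library 3 and vehicle library 2 was within a read, and the Cbr2 difference was -0.76 ± 0.54 (SE, adjusted p = 0.606, limma), with a pooled ratio of 0.447 (0.0916 to 1.32). Ms4a7, a gene of the MS4A membrane proteins that separates border-associated macrophages from resting microglia, had 0 reads in every Nrg-1β1 library and 51, 1 and 73 in the vehicle libraries. Its log2 values were 2.00 in all 3 Nrg-1β1 libraries and 2.83, 2.83 and 3.07 in the vehicle libraries. At the pooled vehicle level of 3.75 normalized counts only 2.69 reads would have been counted in the Nrg-1β1 libraries. A count of 0 there allows a level of up to 4.18 normalized counts (3 reads over the group), so a difference in Ms4a7 was not detectable at this depth.

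**Figure D3:**
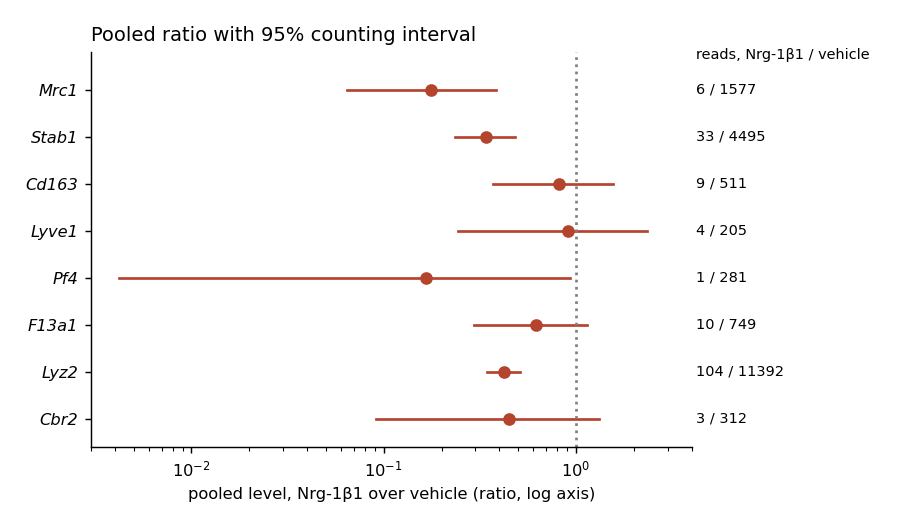
Ratio of pooled levels, Nrg-1β1 over vehicle, on a log axis, with 95% exact counting intervals that leave out the spread between animals; the reads behind each ratio are given at the right, Nrg-1β1 first. The intervals of Mrc1, Stab1, Pf4 and Lyz2 lie below 1, those of Cd163, Lyve1, F13a1 and Cbr2 include 1, and Ms4a7, with 0 reads in the Nrg-1β1 group, is not drawn.

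Levels between genes were compared per kilobase of exon. In vehicle the mean was 245 normalized counts per kilobase for Lyz2 (range 159 to 360), 13.5 for Stab1 (7.49 to 18.7) and 12.1 for Pf4 (7.63 to 15.7). It was 7.21 for Mrc1 (4.48 to 10.4), 6.26 for Cbr2 (4.65 to 8.70), 3.37 for Cd163 (1.85 to 4.52), 3.29 for F13a1 (2.52 to 4.15), 2.45 for Lyve1 (1.80 to 3.17) and 0.793 for Ms4a7 (0.693 to 0.991). Of the neighbours in this order, Lyz2 and Stab1, Cbr2 and Cd163, and Lyve1 and Ms4a7 did not overlap, and the others did. With Nrg-1β1, Lyz2 ranged from 58.9 to 143 and Stab1 from 2.66 to 6.95 per kilobase, also without overlap. No Nrg-1β1 library held more than 4 reads of any of the other 7 genes, so their order there was not read.

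The summed level of the set was lower in every Nrg-1β1 library than in any vehicle library. It was 191, 266 and 246 normalized counts in the Nrg-1β1 libraries and 635, 550 and 543 in the vehicle libraries. Lyz2 alone gave 40.5% to 76.5% of the sum with Nrg-1β1 and 38.7% to 74.6% with vehicle.

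Relative to microglial genes the groups overlapped or not depending on 1 gene of the microglia list. Sparc encodes a secreted matrix protein that microglia share with astrocytes and endothelium, and it was singled out after its values were seen. It had 4969, 2896 and 2674 normalized counts with Nrg-1β1 and 868, 1812 and 1324 with vehicle, the opposite direction to the macrophage set (difference 1.40, adjusted p = 0.0621, limma). Sparc thus made up 53.6% to 73.6% of the summed level of the 12 microglia genes with Nrg-1β1 and 10.9% to 25.8% with vehicle. Relative to the other 11 microglia genes, the 9 macrophage genes came to 10.7%, 10.6% and 11.2% with Nrg-1β1 and 8.97%, 10.5% and 11.7% with vehicle, and the groups overlapped. With Sparc in the sum they came to 2.83%, 4.92% and 5.05% with Nrg-1β1 and 7.99%, 7.81% and 9.11% with vehicle, without overlap.

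Without Lyz2 the 8 other macrophage genes came to 6.36%, 5.10% and 2.63% of the 11 microglia genes with Nrg-1β1 and to 2.28%, 5.09% and 7.18% with vehicle. These values overlapped as well. Relative to 10 endothelial genes the 9 genes stood higher with Nrg-1β1, at 161% to 188%, than with vehicle, at 18.5% to 88.1%. Vehicle library 3, with the most endothelial signal, had the lowest of these values.

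**Figure D4:**
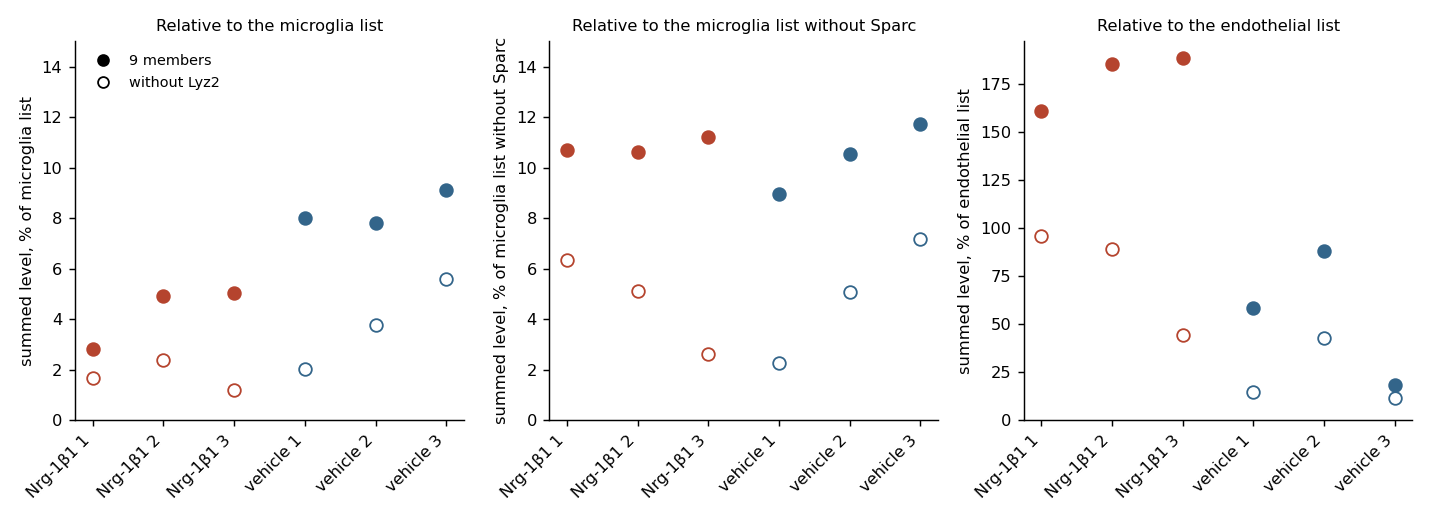
Summed level of the 9 genes in each library as a percentage of the summed level of the 12-gene microglia list (left), of that list without Sparc (middle) and of the 10-gene endothelial list (right); filled points are all 9 genes and open points the set without Lyz2. The filled Nrg-1β1 points lie under the vehicle points at the left, at 2.83% to 5.05% against 7.81% to 9.11%, but among them in the middle, at 10.6% to 11.2% against 8.97% to 11.7%, and above them at the right.

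Among 28 further genes of border-associated macrophages and scavenging, 27 were measured, none passed, and 22 had a negative difference, with a median of -0.43 (0.03 over all genes). Slc40a1, which encodes the iron exporter ferroportin, differed by -1.64 ± 0.44 (SE, adjusted p = 0.0775, limma), and Tgfbi, a matrix protein gene, by -2.05 ± 0.61 (SE, adjusted p = 0.112). Axl, a receptor tyrosine kinase gene that many brain cells express and that was singled out after its values were seen, gave 46.3% to 59.8% of the summed level of this list with Nrg-1β1 and 26.1% to 35.0% with vehicle, and it was higher in every Nrg-1β1 library (difference 0.57, adjusted p = 0.398, limma). Without Axl the other 26 genes summed to 651, 587 and 444 normalized counts with Nrg-1β1 and to 779, 871 and 1002 with vehicle, without overlap. With Axl the sums were 1093 to 1219 with Nrg-1β1 and 1128 to 1355 with vehicle, and the groups overlapped. Of 7 MHC class II genes, which some border-associated macrophages carry, none passed and 6 were negative (median -0.78), with Cd74, the invariant chain, at -1.10 (adjusted p = 0.189) and H2-Aa at -1.07 (adjusted p = 0.453).

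Several genes of myeloid cells in general and of microglia passed the threshold. Of 12 pan-myeloid genes 2 fell, Csf1r, the receptor both macrophages and microglia need (-1.43, adjusted p = 0.0197, limma), and the integrin gene Itgam (-1.44, adjusted p = 0.0247), with a list median of -1.11. Of 12 microglia genes 6 fell, with a list median of -1.23, among them the purinergic receptor gene P2ry12 (-2.03), Gpr34 (-1.81), Siglech (-1.66), Fcrls (-1.61) and the fractalkine receptor gene Cx3cr1 (-1.20), at adjusted p from 0.00477 to 0.0467 (limma). The summed microglial level without Sparc was 1787 to 2503 normalized counts with Nrg-1β1 and 4634 to 7084 with vehicle, without overlap. With Sparc it was 4871 to 6757 with Nrg-1β1 and 5958 to 7952 with vehicle, and the groups overlapped. No gene of the list was at 0 in any library. Of 7 measured monocyte genes 2 fell, Fn1 (-2.30, adjusted p = 0.0348), which vessels and fibroblasts also express, and the immediate early gene Nr4a1 (-1.31, adjusted p = 0.0499). Of 6 measured neutrophil genes none passed, and S100a8, S100a9, Ngp and Ltf had 0 reads in every Nrg-1β1 library. The neutrophil list had 0 or 1 read in each Nrg-1β1 library and 551, 0 and 130 in the vehicle libraries. Whether the 9 genes differed more or less than microglial genes was not tested.

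Genes of the vessels and their sheath, beside which these macrophages lie, were also lower. Their calls come from the same fit, with 0.625% of all genes called lower, and were likewise absent in the refits just named. Of 10 endothelial genes 7 fell, with a median of -2.57: Slco1a4 (-3.62), Ly6c1 (-3.59), Cldn5 (-3.47), Abcb1a (-3.08), Pecam1 (-2.62), Flt1 (-2.52) and Tek (-2.48), at adjusted p from 0.00262 to 0.0301 (limma). Their summed level was 119 to 143 normalized counts with Nrg-1β1 and 624 to 2937 with vehicle. Of 8 meningeal and perivascular fibroblast genes none passed and all 8 were negative (median -0.86), with Ogn at -2.06 (adjusted p = 0.082) and Dcn at -1.91 (adjusted p = 0.181). Their summed level was 103 to 140 with Nrg-1β1 and 164 to 424 with vehicle. The part of vascular tissue in the macrophage differences was not tested. Of 8 progenitor genes, Sox1 rose (1.96, adjusted p = 0.0194, limma) and Nes differed by -1.65 (adjusted p = 0.0582), with a list median of 0.03. Over all genes 0.438% were called higher.

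Depth and sex-linked reads moved with the groups, so the differences were also computed against single vehicle libraries. No vehicle library was near the Nrg-1β1 libraries in both. Against vehicle library 2 alone, the vehicle library nearest in depth, all 9 differences were negative. Ms4a7, with 0 reads with Nrg-1β1, could not have been positive against any vehicle library. Its value rested on 1 read in vehicle library 2, where Cbr2, Lyve1 and Pf4 had 2, 3 and 3 reads. Mrc1 stood at -2.04, Stab1 at -1.58, Lyz2 at -1.14 and Pf4 at -1.46. This library had 216 Xist reads and 1 Ddx3y read, unlike the Nrg-1β1 libraries. Against vehicle library 3 alone, the vehicle library with the most Y-linked reads, all 9 were again negative. Mrc1 stood at -2.61, Stab1 at -1.95, Lyz2 at -0.71 and Lyve1 at -0.05. That library was deep and also held 1045 Xist reads, so it matched the Nrg-1β1 libraries in neither depth nor Xist. With 1 vehicle library these values carry no estimate of the spread among vehicle animals, and no gene of the set passed. When Nrg-1β1 library 3 was left out Lyve1 turned to 0.27, and it was the only sign that changed when single libraries were left out.

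**Figure D5:**
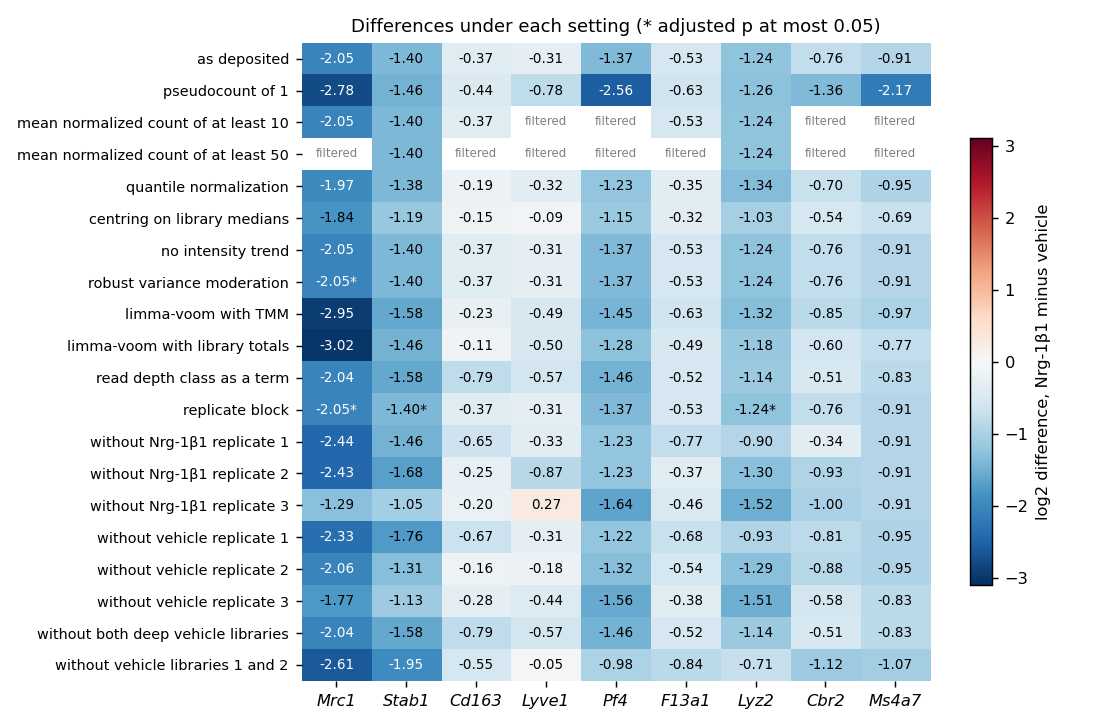
Log2 differences of the 9 genes, Nrg-1β1 minus vehicle, with the libraries as deposited and under each alternative scaling, filter, model or choice of libraries; colour gives the size, an asterisk an adjusted p of at most 0.05, and "filtered" a gene removed by a minimum level. Mrc1 ranges from -3.02 to -1.29 and Stab1 from -1.95 to -1.05, and the only positive value is Lyve1 at 0.27.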

How the data were processed

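RNA of 6 libraries, 3 from Nrg-1β1 and 3 from vehicle mice, was analysed from the table that the authors deposited. Trimmomatic and Bowtie2 are named in the submitters' processing notes. Tool versions, the build, how reads were counted and normalized, and how genes were filtered: not given in the sources used here. The table deposited by the authors holds log2 values; 6779 of its 27102 genes were blank, which left 20323. Every library bottomed out at the log2 of 4. Once unlogged and reduced by 4, the values stepped in whole multiples, and 100% of those worth up to 1000 reads were within 0.02 of a whole read. They were read as log2(normalized count + 4), which comes from the values, and whole reads were recovered from the steps. Log2 differences on this scale can understate changes of genes with few reads, because the offset of 4 shrinks them. They can also exceed the change in the means where a library has 0 reads. Lyve1 differed by -0.31, although its mean normalized count was 6.83 with Nrg-1β1 and 7.16 with vehicle. Without a strand setting, overlapping and antisense genes could not be told apart.

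Differences are Nrg-1β1 minus vehicle, from limma 3.58.1 in R 4.3.3 with an intensity trend, group as the only term and Benjamini-Hochberg adjustment over all genes. No count model was the main test because the deposited unit is log2. Unadjusted p-values are also from limma. SDs measure the spread between libraries, which includes counting error where reads are few. SEs and p-values use variances moderated over all genes, so they do not measure the spread of 1 gene between animals alone. Pooled ratios divide the reads of a group by the reads that 1 normalized count is worth, summed over its libraries, so the deep vehicle libraries carry most of the vehicle value. Intervals (95%, exact Clopper-Pearson) and the floor of 3 reads over the Nrg-1β1 group cover counting error only, and without molecular identifiers copies of a molecule could not be told apart. Exon lengths are unions of GENCODE vM21 exons and may differ from the annotation used by the authors.

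The 9 members and the 11 other gene lists were chosen with earlier results of these data known. All members were named, and from each other list the genes past the threshold or, where fewer than 2 passed, the 2 with the smallest p; a gene that this rule names is not reported here. Sums over a list without its most abundant gene were added after seeing the data. No set test was run. Motifs were searched in 32851 RefSeq windows of GRCm38.p6, with 8 of the 9 members present.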

Additional observations from a re-analysis of the deposited data

How the results depend on the processing

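Of 160 differences recomputed over 19 alternatives, 155 kept their direction and their side of the threshold, 1 changed sign (Lyve1, from -0.87 without Nrg-1β1 library 2 to 0.27 without Nrg-1β1 library 3 over the fits that left out a single library) and 4 passed the threshold. No member passed as deposited, so keeping its side meant staying uncalled. Several fits called 0 of all genes lower (given below), and there no member could have changed sides downward. With the replicate block 3 genes were called lower, Mrc1 (adjusted p = 0.0181, limma), Lyz2 (0.02) and Stab1 (0.0223), where 1.68% of all genes were called lower. Same-numbered libraries did not deviate together from their group means (r = -0.13, -0.002 and -0.18 across genes for numbers 1 to 3). None correlated best with its own number. The labels do not say that a number pairs animals, so the block was not read as a paired result. With robust variance moderation 1 gene was called lower, Mrc1 (adjusted p = 0.0496). Under the other alternatives that kept more than 1 vehicle library 0 were called, limma-voom with TMM scaling (unadjusted p under 0.05 for 3) and with library totals (2) included. Of all 20323 genes, limma-voom called 0 lower with TMM scaling and 1 with library totals. The fit with depth class (deep or shallow) as a term called 0 of all genes lower. So did each fit without 1 Nrg-1β1 library and the fit without vehicle library 2. In those fits a count of 0 is not particular to the set. The median difference was -1.36 with a pseudocount of 1, -1.24 and -1.32 for the 5 and 2 genes whose mean over libraries reached 10 and 50 normalized counts, -0.69 after centring on library medians and -0.77 with library totals. The median over all genes moved to 0.25 after that centring, to 0.11 with limma-voom and TMM and to 0.27 with library totals, and relative to it the median of the 9 genes was -0.94, -1.08 and -1.03. The adjusted p ranged from 0.0181 to 0.826 for Mrc1, 0.0223 to 0.778 for Stab1 and 0.02 to 0.892 for Lyz2. In 4 of the 9 genes fewer than 5 reads over the 3 Nrg-1β1 libraries limit what can be seen. The cause of these shifts was not tested. The fit without vehicle libraries 1 and 2 was chosen after seeing the data.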
